A study of Mus musculus with 21 samples.

Results

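Expression of 10 genes, here called ERK feedback genes, was followed through 21 mouse mammary tumours. Inhibitors among them were the MAP kinase phosphatases Dusp4, Dusp5 and Dusp6, Spry1, Spry2 and Spry4 of the Sprouty genes, and the SPRED genes Spred1 and Spred2. The ETS factors Etv4 and Etv5 were included as genes induced by the pathway rather than as its inhibitors. The 10 genes were chosen by symbol from the 24028 genes of the counts table. All 10 were found and passed the filter on low counts that kept 15792 genes. Every tumour came from a mouse of the genotype WAP-Cre/PIK3CA-H1047R, in which Cre recombinase driven by a milk protein promoter turns on a mutant PI3K-alpha catalytic subunit in mammary epithelium, so the controls carry the oncogene too. The vehicle group received DMSO, and the groups here called relapse and stable were given BYL719, also called alpelisib, which inhibits PI3K-alpha, and carry the treatment labels BYL719_Relapse and BYL719_Stable. Each group held 7 tumours. The series' design text calls the treated groups responding and stable, without linking responding to relapse; ages, doses and collection times are not among the labels used here. Titles carry a code, of which the vehicle group has 3, the relapse group 7 and the stable group 4, and 2 codes occur in both treated groups. Whether a code is an animal is not stated, so p-values measure the spread between tumours that may not be independent.

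ERK is the last kinase of the RAS, RAF and MEK cascade downstream of receptor tyrosine kinases. Active ERK switches on transcription of its own inhibitors: DUSP phosphatases remove its activating phosphates, Sprouty proteins dampen the signal between receptor and RAF, and SPRED proteins bring the RAS GTPase-activating protein neurofibromin to the membrane. Etv4 and Etv5 encode transcription factors of the PEA3 subfamily that are induced by the same pathway, and transcripts of these genes are commonly read as a measure of pathway output. Mutant PI3K-alpha signals mainly through AKT, and in mammary tumours receptor tyrosine kinases feed both pathways.

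Upstream sequences are given for the pair of genes that varied most closely together, Dusp6 and Etv5, and for Spry1, which passed the test between groups. They are the 250 bases before the start site, from RefSeq on GRCm38.p6, and a start was listed for 7 of the 10 genes (8 starts). Capitals mark GC boxes (GGGCGG) and CCAAT boxes, read on both strands. Etv5 has a further start, with the window chr16:22438369-22438618, which is not shown. That window held 0 GC boxes and 1 CCAAT box, against 3 and 3 in the Etv5 window shown. GC, CCAAT and TATA boxes were added to the search after the other motifs had no match.
Dusp6, chr10:99262981-99263230, plus strand: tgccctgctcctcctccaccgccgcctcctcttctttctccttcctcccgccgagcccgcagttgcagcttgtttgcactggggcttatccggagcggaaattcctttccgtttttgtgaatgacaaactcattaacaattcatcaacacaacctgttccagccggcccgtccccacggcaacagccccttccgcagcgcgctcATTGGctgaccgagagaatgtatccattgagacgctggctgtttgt
Etv5, chr16:22439571-22439820, minus strand: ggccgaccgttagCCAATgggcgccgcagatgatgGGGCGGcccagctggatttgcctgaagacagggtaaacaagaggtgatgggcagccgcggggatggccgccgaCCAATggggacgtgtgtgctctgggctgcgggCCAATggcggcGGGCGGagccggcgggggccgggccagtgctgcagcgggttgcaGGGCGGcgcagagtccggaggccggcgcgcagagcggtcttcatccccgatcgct
Spry1, chr3:37639697-37639946, plus strand: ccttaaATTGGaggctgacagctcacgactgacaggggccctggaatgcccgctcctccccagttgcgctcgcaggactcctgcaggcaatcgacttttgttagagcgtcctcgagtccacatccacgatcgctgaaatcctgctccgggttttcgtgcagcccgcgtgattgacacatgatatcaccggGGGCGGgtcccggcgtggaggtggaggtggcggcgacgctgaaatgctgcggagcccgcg
A GC box was present in 5 of the 8 windows and in 32.7% of 32851 windows of the same length, and a CCAAT box in 4 of 8 and in 33.8%. Letters of an ETS site (CCGGAAG, 6.91% of all windows) or an AP-1 site (TGANTCA, 6.75%) were found in 0 of the 8. The same held for a CRE (TGACGTCA, 1.55%) and a TATA box (TATAAA, 12.4%). It also held for the forms TGAATGAA and TGAATGGA (2.07%) of the octamer of the ERK-regulated repressor CIC. Forms of that octamer that begin with TC were not searched, nor were ETS sites with letters other than CCGGAAG. These matches describe letters in a short window only, and the motifs do not overlap in the sequences shown.

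Total counts were 21043399 to 24873844 for the vehicle group. The relapse group had 17722622 to 21431465 and the stable group 13337848 to 24648463. No pair of tumours within a group agreed within sampling noise. The luminal list (keratins 8 and 18, Epcam and others) summed to 1914 CPM or more in every tumour, with no marker at 0. CPM is a gene's count relative to the scaled total of its library. Vehicle 2, 6 and 7 stood apart: their basal and myoepithelial markers summed to 11069 to 24323 CPM, against 1289 to 5767 CPM in vehicle 1, 3, 4 and 5. The relapse group summed to 1015 to 2348 CPM, and the stable group to 259 to 1561 CPM. Their fibroblast (6123 to 11630 against 2111 to 6049 CPM) and endothelial markers (402 to 690 against 275 to 330 CPM) were also above those of vehicle 1, 3, 4 and 5. Their neutrophil (8.51 to 20.5 against 150 to 426 CPM), squamous (10.2 to 289 against 777 to 3263 CPM) and macrophage markers (742 to 868 against 1102 to 2938 CPM) were below. Stable 1 and relapse 2 stood apart in the feedback genes, and stable 1 in markers too. Stable 1 had the lowest basal (259 CPM, other stable tumours 999 to 1561) and endothelial sums of all tumours (147 CPM), a squamous sum of 40.3 CPM (other stable tumours 265 to 1112) and the highest luminal sum of its group (5216 CPM). The part of these markers in its feedback gene levels was not tested. In bulk tissue, fewer cells of a type and less RNA per cell cannot be told apart.

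Corrected for gene length, the feedback genes spanned a wide range of levels. Spred1 had the highest median over 21 tumours, 41.5 RPKM, which is CPM per kilobase of the deposited gene length (lowest 30.9, highest 73.4). Dusp6 followed at 31.8 RPKM (21.3 to 191) and Dusp4 at 27.3 (9.65 to 43.6). By median a step separated these from the rest. Dusp4 lay above Spred2, the next by median, in 21 of 21 tumours, but below Etv5 in vehicle 2 and vehicle 6. Spred2 (median 7.96), Spry1 (7.67), Spry2 (6.59), Dusp5 (6.02) and Etv5 (5.89 RPKM) could not be ordered, since each of the first 4 lay above the next in only 10 to 15 of 21 tumours. Etv5 lay above Etv4 (2.57 RPKM) in 21 of 21 tumours, and Etv4 above Spry4 (1.56 RPKM) in 13. Spry4 was the most variable on this scale, with its highest tumour 16.2 times its lowest, and Spred2 the least at 2.29 times.

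**Figure D1:**
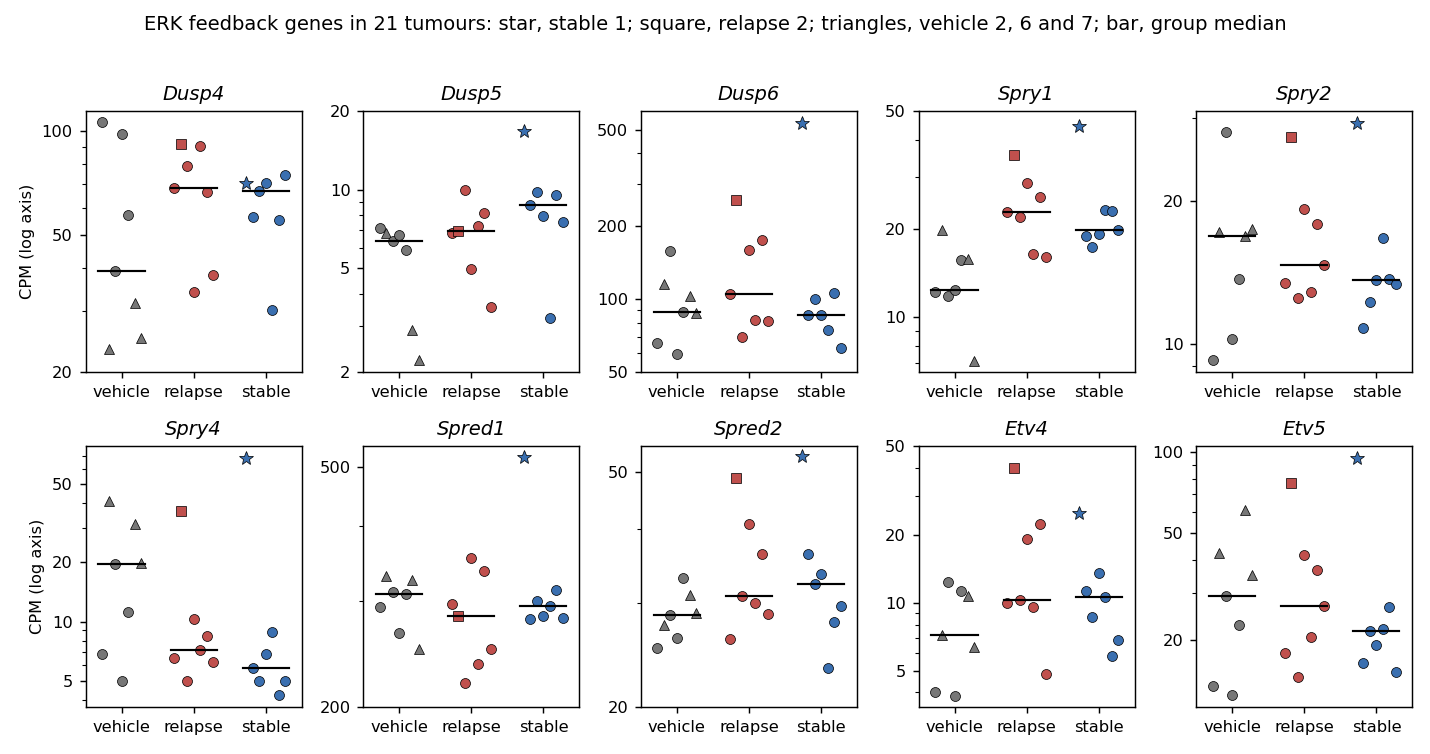
CPM of each feedback gene (log axis) in the 7 vehicle, 7 relapse and 7 stable tumours, 1 symbol per tumour and a bar at the group median. Stable 1 (star) is the highest of all tumours for 8 of the 10 genes, and the groups overlap in every panel.

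The most visible pattern was between tumours rather than between groups. Stable 1 held the highest value of 8 of the 10 genes and relapse 2 was among the top 3 tumours for 8. Dusp6, which encodes an ERK-specific phosphatase of the cytoplasm, was at 535 CPM in stable 1 and at 62.8 to 106 CPM in the other stable tumours. It was at 257 CPM in relapse 2 and at 69.9 to 176 CPM in the other relapse tumours. Vehicle tumours ran from 59.6 (vehicle 4) to 158 CPM (vehicle 3), so stable 1 was 6.01 and relapse 2 was 2.88 times the median of all 21.

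Spry4, an inhibitor of receptor signalling to RAS and RAF, spread further. It was at 68.3 CPM in stable 1, where the other stable tumours held 4.22 to 8.83, and at 36.5 CPM in relapse 2, where the other relapse tumours held 4.96 to 10.3. Vehicle 1 to 7 were at 6.86, 40.8, 19.6, 4.96, 11.2, 31.3 and 19.8 CPM. The 3 vehicle tumours with high basal markers thus held 19.8 to 40.8 CPM, and the other 4 held 4.96 to 19.6, with vehicle 3 just under vehicle 7. Stable 1 and stable 6 share a title code, yet stable 6 was the lowest of all tumours at 4.22 CPM. Vehicle 1 and vehicle 2 also share one and stood at 6.86 and 40.8 CPM.

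Etv5 followed the same tumours. It was at 95.6 CPM in stable 1 and 77.2 in relapse 2, then at 61.4, 42.4 and 35.1 CPM in vehicle 6, 2 and 7, and between 12.5 and 29.4 CPM in vehicle 1, 3, 4 and 5. The remaining relapse tumours lay between 14.6 and 41.5 CPM and the remaining stable tumours between 15.3 and 26.7. Etv4 differed in which tumour led: relapse 2 held 40.0 CPM, stable 1 held 25.1, and relapse 6 and 4 held 22.6 and 19.2. In vehicle 2, 6 and 7 Etv4 was at 7.18, 10.7 and 6.39 CPM, within the range of 3.87 to 12.4 CPM in the other vehicle tumours. Dusp6 likewise stayed at 87.7 to 115 CPM in those 3 tumours, so the high Spry4 and Etv5 levels of vehicle 2, 6 and 7 came without high Dusp6 or Etv4. The part of the basal, stromal, immune and squamous markers in those levels was not tested.

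**Figure D2:**
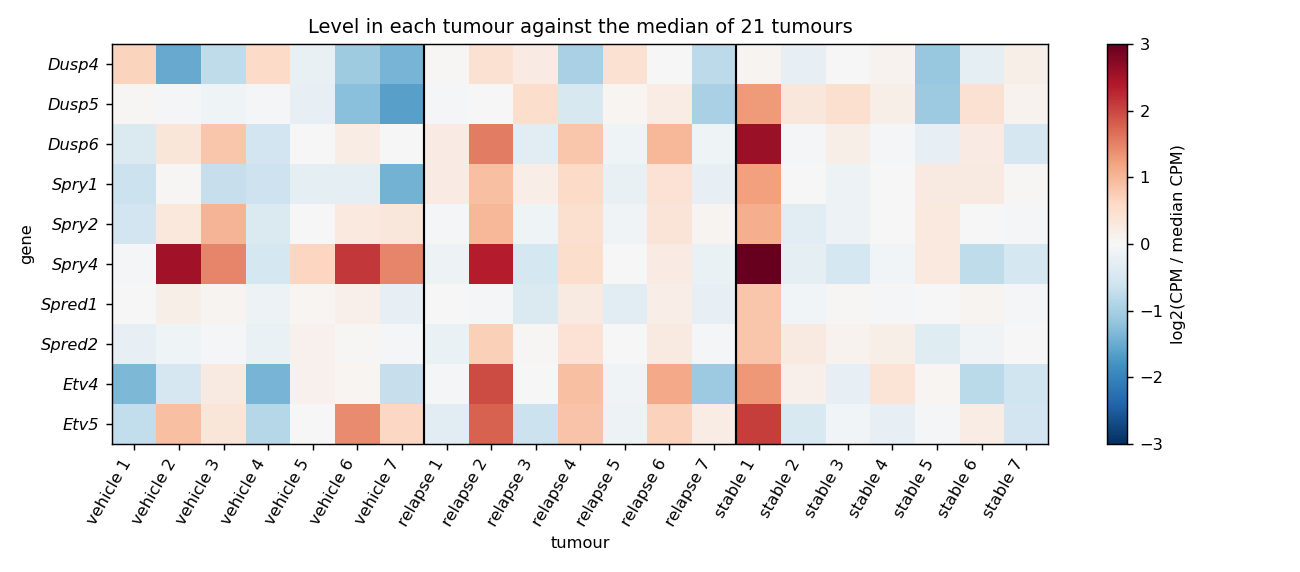
Level of each gene (rows) in each tumour (columns) as log2 of its CPM over the median CPM of 21 tumours; black lines divide vehicle, relapse and stable. The stable 1 column is above the median for 10 of 10 genes, and relapse 2 for 8.

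Spry2 was at 29.3 CPM in stable 1, 28.0 in vehicle 3 and 27.4 in relapse 2, and at 9.23 to 19.3 CPM in the other 18 tumours. Spred1, which encodes an adaptor that recruits neurofibromin, was at 520 CPM in stable 1 and at 219 to 354 CPM in all others; relapse 2, at 283 CPM, was not raised. Spred2 was at 53.1 CPM in stable 1 and 48.9 in relapse 2, and at 23.2 to 40.8 CPM elsewhere. Dusp5, an ERK phosphatase of the nucleus, was at 16.8 CPM in stable 1 and at 6.95 in relapse 2, the median of its group, with 2.24 to 9.97 CPM in the other tumours. An antisense gene overlaps Dusp5 exons, and without a stated strand setting reads from the 2 strands cannot be told apart; the same holds for Spry1 and an opposite transcript at its start.

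Dusp4, a nuclear phosphatase that acts on ERK and related kinases, followed another order. It was at 70.8 CPM in stable 1, close to the median of 66.3 over all tumours. Its highest values were 106 and 98.1 CPM, in vehicle 1 and vehicle 4, which were the 2 lowest tumours for Etv5 (13.6 and 12.5 CPM). Its lowest were 23.4 and 25.1 CPM, in vehicle 2 and 7, with vehicle 6 at 31.8 CPM.

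Across the 18 tumours other than vehicle 2, 6 and 7, log2 CPM was correlated for all 45 pairs of genes. Vehicle 2, 6 and 7 were left out because they stood apart, a choice made with earlier results of these data known. After Benjamini-Hochberg adjustment over the 45, 28 pairs passed by Pearson's r and 17 by Spearman's rho (two-sided permutation tests with 100000 resamples). The 28 were all positive. The share of pairs of other genes that would pass in these tumours was not computed, so the count cannot be called particular to the feedback genes. Dusp6 and Etv5 had the highest coefficient, r = 0.945 (permutation p = 1e-05, the smallest these resamples can give; adjusted 0.00015) and rho = 0.858 (permutation p = 3e-05; adjusted 0.000675). Without the 2 tumours farthest from the Dusp6 median, relapse 2 and stable 1, their r was 0.87. Spry2 and Etv5 had r = 0.881 (permutation p = 3e-05, adjusted 0.000337) and rho = 0.915 (permutation p = 1e-05, adjusted 0.00045). Their r was 0.928 without vehicle 3 and stable 1, the 2 tumours farthest from the Spry2 median. It was 0.776 without relapse 2 and stable 1.

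Other pairs depended more on which tumours were included. Spry1 and Spry4 had r = 0.555 (permutation p = 0.0175; adjusted 0.03) and rho = 0.226 (permutation p = 0.366; adjusted 0.445), and r fell to -0.18 without relapse 2 and stable 1. Dusp4 passed only with Dusp5 by Pearson's r (0.572, permutation p = 0.0123, adjusted 0.0222; rho = 0.368, permutation p = 0.131, adjusted 0.19), and that r was 0.322 without relapse 4 and stable 5. With stable 1 and relapse 2 left out of all pairs, a choice made after seeing the data, 13 of 45 passed, 11 of them positive. In those 16 tumours Dusp4 was negatively related to Spry2 (r = -0.71) and Etv5 (r = -0.69). Dusp4 and Dusp5 still passed there, with a positive r of 0.66 (permutation p = 0.00537, adjusted 0.0242). The tumours share title codes, which these tests do not take into account.

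**Figure D3:**
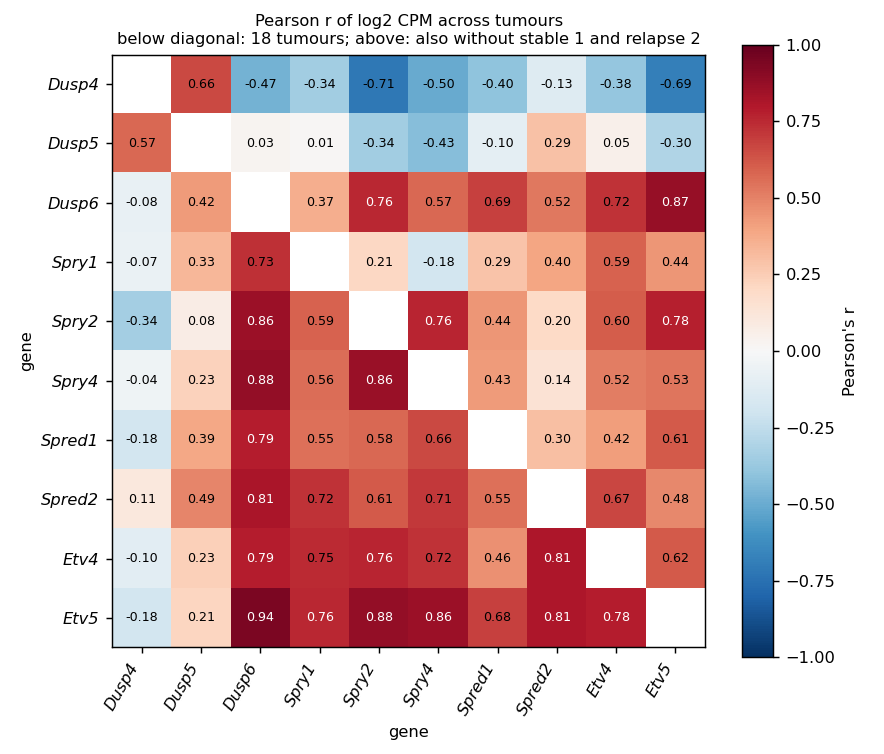
Pearson's r of log2 CPM for each pair of genes; below the diagonal 18 tumours without vehicle 2, 6 and 7, above it 16 tumours, also without stable 1 and relapse 2. The block from Dusp6 to Etv5 stays positive except for Spry1 with Spry4, and the Dusp4 row is negative for 8 genes above the diagonal.

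Among 13372 other genes whose log2 CPM averaged 1 or more, those whose pattern over the 18 tumours was most like the mean standardised level of the 10 feedback genes were Spsb4, Ldlrad3, Cers6, Zswim4 and Tgif2. Their Pearson coefficients were 0.949, 0.929, 0.899, 0.899 and 0.898. Without stable 1 and relapse 2 they were 0.851, 0.641, 0.696, 0.715 and 0.579, given as a description only.

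The first comparison set the relapse tumours against vehicle. Of the 10 feedback genes 1 passed the test in edgeR, Spry1, and it rose; 11.2% of all 15792 genes were called in this comparison (adjusted p under 0.05; 5.42% higher and 5.8% lower), so the share of feedback genes called is close to that of all genes. Spry1 was at 12.2, 19.7, 11.8, 12.4, 15.7, 15.8 and 7.14 CPM in vehicle 1 to 7, and at 22.7, 35.6, 21.9, 28.5, 16.3, 25.6 and 16.0 CPM in relapse 1 to 7. The groups overlapped, with 5 of 7 relapse tumours above the highest vehicle tumour and 7 of 7 above the vehicle median. The means were 13.5 ± 3.97 and 23.8 ± 6.90 CPM (SD, n = 7 each), a log2 fold change of 0.82 ± 0.24 (SE; edgeR adjusted p = 0.0318).

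The Spry1 call depended on the fit, while the size of the difference changed little. Over the 21 fits that each left out 1 tumour, the log2 fold change was 0.69 to 0.92. The call was lost when the counts of a title code were summed (0.81, edgeR adjusted p = 0.0801; 5.87% of all genes called) and without vehicle 2, 6 and 7 (0.0702; 3.28% called), where the log2 fold change was 0.88. It was also lost without any 1 of vehicle 1 (0.0556), 3 (0.0507), 6 (0.0542) or 7 (0.0773) or relapse 2 (0.0708), 3 (0.0570), 4 (0.0581) or 6 (0.0566). Skeletal muscle markers moved with the group, 12 of 13 called higher, and summed to 238 to 1363 CPM in vehicle and 280 to 29170 CPM in relapse tumours. The muscle sum was lowest in relapse 4 (280 CPM, Spry1 28.5 CPM) and highest in relapse 1 (29170 CPM, Spry1 22.7 CPM). Basal markers were called lower for 7 of 11, and the part of muscle and basal markers in the Spry1 difference was not tested.

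The other 9 genes did not pass. Etv4 had the largest estimate, 16.6 ± 12.0 CPM in relapse against 7.99 ± 3.51 CPM in vehicle tumours, a log2 fold change of 1.06 (95% confidence interval 0.19 to 1.93; edgeR adjusted p = 0.105). It was 0.67 without relapse 2. Spry4 was lower on average, at 11.4 ± 11.2 against 19.2 ± 13.1 CPM, with a log2 fold change of -0.75 (-2.13 to 0.64; adjusted p = 0.504). Without vehicle 2, 6 and 7 the Spry4 value turned to 0.10 and that of Dusp4 from 0.30 to -0.16. Dusp5 (0.33), Spred2 (0.27), Etv5 (0.12), Spry2 (0.07) and Spred1 (-0.08) had intervals that included 0, as did Dusp6 (0.45). The median over the 10 genes was 0.29, against -0.02 over all genes tested. For Spred1 the interval was -0.37 to 0.22, the narrowest of the 10.

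**Figure D4:**
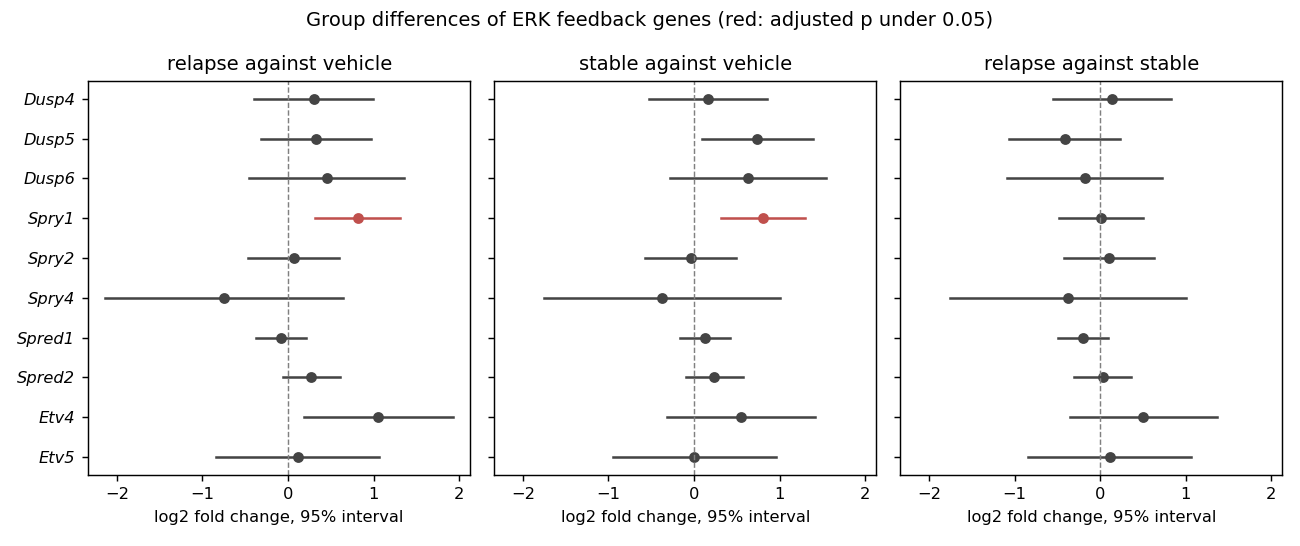
Log2 fold change of each gene with its 95% confidence interval in the 3 comparisons; red marks an adjusted p under 0.05. Spry1 is red in both comparisons with vehicle, at 0.82 and 0.81, and no gene is red between relapse and stable.

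The second comparison set the stable tumours against vehicle. Again 1 of 10 passed, Spry1, and it rose, where 15.1% of all genes were called (6.9% higher and 8.16% lower). It was at 44.7, 18.8, 17.3, 19.1, 23.1, 22.9 and 19.7 CPM in stable 1 to 7. Here too 7 of 7 lay above the vehicle median and 4 of 7 above the highest vehicle tumour. The stable mean was 23.7 ± 9.52 CPM (SD, n = 7) and the log2 fold change 0.81 ± 0.24 (SE; edgeR adjusted p = 0.0289). Both comparisons use the same vehicle tumours, so their results are not independent.

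Without stable 1 the Spry1 value was 0.57 (adjusted p = 0.0503), and the edgeR call was also lost without vehicle 7 (0.0567) and in a fit of these 2 groups alone (0.0646). The same held without vehicle 2, 6 and 7 (0.88; 0.0597; 5.27% of all genes called) and for summed title codes (0.114; 3.64% called). Skeletal muscle markers were called higher for 8 of 13, with sums of 478 to 19753 CPM in stable tumours, and basal markers lower for 7 of 11. The muscle sum was highest in stable 5 (19753 CPM, Spry1 23.1 CPM) and lowest in stable 2 (478 CPM, Spry1 18.8 CPM), and its part was not tested. Stable 3, lowest of its group for Spry1, was at 17.3 CPM, below vehicle 2.

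Several of the other 9 genes depended on stable 1. Dusp6 stood at 150 ± 170 CPM in stable and 97.0 ± 33.3 CPM in vehicle tumours (0.63, interval -0.28 to 1.54; adjusted p = 0.334), and its value became -0.17 without stable 1. Spry4 stood at 14.8 ± 23.6 CPM (-0.37, -1.75 to 1.01; adjusted p = 0.737). Without stable 1 it was at -1.70 and passed the test (adjusted p = 0.0257), whereas without vehicle 2 it was at 0.0070. Etv5 was level at 31.0 ± 28.7 against 31.0 ± 17.2 CPM, and was at -0.62 without stable 1 (adjusted p = 0.262).

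Dusp5 was at 9.08 ± 4.05 CPM in stable and 5.43 ± 2.01 CPM in vehicle tumours. Of the stable tumours 6 of 7 lay above the highest vehicle value of 7.13 CPM, and stable 5 lay at 3.24 CPM. Its log2 fold change was 0.74 (0.09 to 1.39; unadjusted p = 0.027 in edgeR, adjusted p = 0.11), and without stable 5 it was 0.89 with an adjusted p of 0.0423. Etv4 (0.55), Spred2 (0.24), Dusp4 (0.16), Spred1 (0.13) and Spry2 (-0.04) did not pass. The median over the 10 was 0.20, against -0.0048 over all genes tested.

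The third comparison set the treated groups against each other. edgeR called 0 of the 10 feedback genes and 0% of all 15792 genes, with 0 of the 10 and 751 of all genes at an unadjusted p under 0.05; the DESeq2 Wald test called 6 genes, none of them a feedback gene. Spry1 differed by 0.0082 (interval -0.48 to 0.50; edgeR adjusted p = 0.999), the smallest difference of the 10. The widest interval was that of Spry4, -1.76 to 1.01 around -0.38, which turned to 0.95 without stable 1 and -1.03 without relapse 2. Etv4 was at 0.50 (-0.36 to 1.37), Dusp5 at -0.42 (-1.06 to 0.23) and Spred1 at -0.20 (-0.49 to 0.09). These intervals leave room for differences of the size seen for Spry1 against vehicle in all but Spry1, Spred1, Spred2 and Spry2.

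The wider pathway was followed through 90 further genes in lists of receptors, adaptors, RAS to ERK kinases, RAS GTPase-activating proteins, ERK effectors, other ERK-induced genes and paralogs of the feedback genes, of which 89 were tested. In relapse against vehicle 4 rose and 5 fell, which is 10.1% against 11.2% of all genes. In stable against vehicle 8 rose and 10 fell, 20.2% against 15.1%. Between relapse and stable 0 passed.

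Receptors accounted for most of the genes that rose. In relapse tumours 3 of 13 receptors rose, the ERBB3 receptor gene Erbb3 (0.95 ± 0.20 SE, edgeR adjusted p = 0.00685), Igf1r (1.33 ± 0.21, 0.00167) and Insr (0.39 ± 0.11, 0.0294), and Fgfr2 fell. In stable tumours 5 rose, among them the same 3 and the stem cell factor receptor gene Kit (0.74 ± 0.20, adjusted p = 0.0209), and Fgfr2 fell. Without vehicle 2, 6 and 7 Igf1r kept its call in both comparisons, and Erbb3 (0.77, adjusted p = 0.066) lost it in relapse.

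Of the 15 RAS, RAF, MEK, ERK and scaffold genes, 1 fell in relapse and 4 in stable tumours, and 0 rose. Hras fell from 31.8 ± 4.14 CPM in vehicle to 21.3 ± 2.44 CPM in stable tumours (-0.58 ± 0.11 SE, edgeR adjusted p = 0.00189), and the others in stable were Mras (-0.68), Map2k2 (-0.32) and the MEK1 gene Map2k1 (-0.37). Of 29 alternative fits, the Map2k1 call was lost in 21, that of Map2k2 in 9 and that of Mras in 3. In relapse Hras was at -0.32 (adjusted p = 0.0499) and lost that call in 22 of 29 alternative fits. Among the 9 adaptors, Ptpn11, which encodes the phosphatase SHP2 that relays receptor signals to RAS, fell to 187 ± 15.2 CPM in relapse and 162 ± 13.1 CPM in stable from 233 ± 17.3 CPM in vehicle tumours (-0.32 ± 0.07 and -0.52 ± 0.07; adjusted p = 0.011 and 0.000374). Gab1 rose in stable tumours (0.36, adjusted p = 0.0407; lost in 13 of 29). Nf1, whose product SPRED proteins recruit, was at -0.38 in relapse (adjusted p = 0.187) and -0.03 in stable tumours (adjusted p = 0.923). Its highest level was again in stable 1, 597 CPM, and it was at 297 CPM in relapse 2. Rasa1 rose in stable tumours (0.34, adjusted p = 0.0367; lost in 14 of 29).

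The 20 other ERK-induced genes did not move as a block. In relapse tumours Myc rose (0.94 ± 0.28 SE, edgeR adjusted p = 0.0353), and the EGF receptor ligand gene Areg (-1.33 ± 0.37, 0.0271) and Kctd12 (-1.57 ± 0.45, 0.0304) fell. In stable tumours the cyclin gene Ccnd1 (-0.94 ± 0.21, adjusted p = 0.00823), the ligand gene Ereg (-2.14 ± 0.64, 0.0299) and Kctd12 (-1.40 ± 0.45, 0.0419) fell, and the interleukin 33 receptor gene Il1rl1 rose (2.12 ± 0.54, 0.0144). Il1rl1 was at 25.9 CPM in stable 5 and at 1.26 to 8.75 CPM in the other stable tumours, and its value without stable 5 was 1.29 (adjusted p = 0.0384). Ereg was at -1.48 (adjusted p = 0.0869) without vehicle 3. The Myc call was lost in 11 of 29 fits. Ccnd1 in relapse was at -0.60 (adjusted p = 0.0753). Kctd12 was at -0.19 and -0.02 without vehicle 2, 6 and 7. Of the 27 calls in these lists, 6 held in all 29 alternative fits: Igf1r in both comparisons, and Erbb3, Ccnd1, Ptpn11 and Hras in stable tumours. Of the 13 ERK effectors 1 fell, Srf in stable tumours (-0.67, adjusted p = 0.0338; lost in 12 of 29), and 0 of the 10 paralogs passed in any comparison.

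The tumours that led the feedback genes differed in receptors and ligands, which was read from the same lists after the values were seen. In stable 1 the hepatocyte growth factor receptor gene Met was at 13690.5 CPM, 55.1 times its median, and at 188 to 413 CPM in the other 20 tumours. The EGF receptor inhibitor gene Errfi1 was at 1214 CPM there and the ligand gene Hbegf at 123 CPM. Errfi1 was also more than 3 times its median in vehicle 6, at 602 CPM. Hbegf was second highest in relapse 2, at 56.3 CPM, with vehicle 3 next at 53.9 CPM. In relapse 2 Met was at 192 CPM and Errfi1 at 139 CPM, and the EGF receptor ligand gene Tgfa was at 105 CPM, the highest of all tumours, with relapse 6 next at 78.2 CPM. In vehicle 2, 6 and 7 Fgfr1 was at 705, 881 and 842 CPM and Fgfr2 at 190, 565 and 452 CPM, above all other tumours, while Tgfa and Hbegf were lowest there. The call for Met in stable against vehicle (3.11, edgeR adjusted p = 0.0225) became 0.12 (adjusted p = 0.625) without stable 1, and Fgfr2 became -0.42 and -0.05 without vehicle 2, 6 and 7 in the 2 comparisons with vehicle. The part of these genes in the feedback gene levels was not tested.

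**Figure D5:**
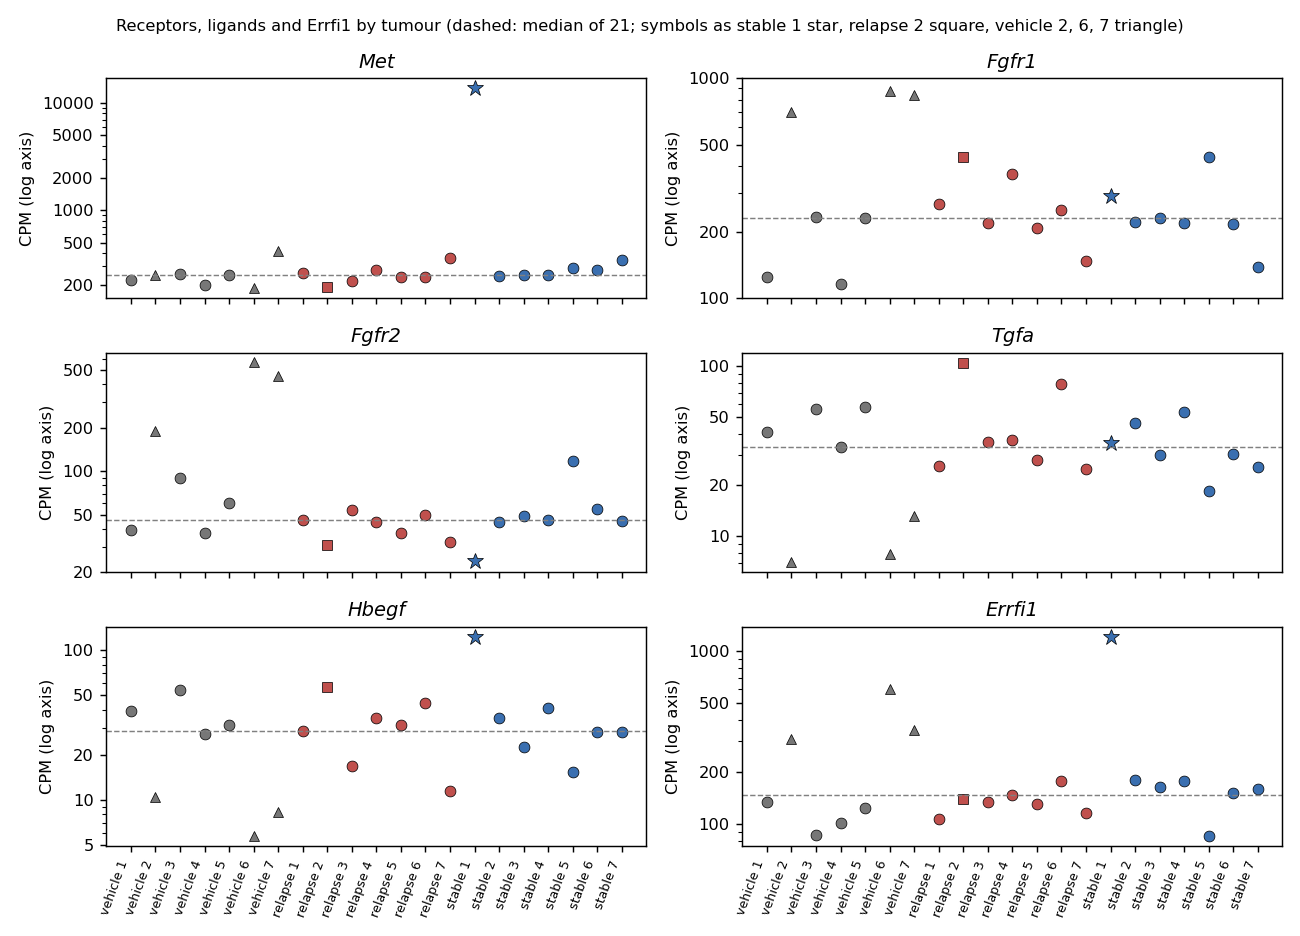
CPM (log axis) of 3 receptor genes, 2 EGF receptor ligand genes and Errfi1 in each tumour, with a dashed line at the median of 21. Met is high in stable 1 alone (13690.5 CPM), and Fgfr1 and Fgfr2 are highest in vehicle 2, 6 and 7.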

How the data were processed

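PolyA RNA of 21 tumours was measured. Per the labels' protocols, frozen tumours were ground and strand-specific libraries were sequenced from a single end with 50 nucleotide reads. The authors deposited 1 table of raw counts per gene, with a gene length. The submitters' processing notes name edgeR, Picard 2.9.2, SAMtools 1.3.1 and STAR 2.5.2a, and the mm10 build; for the annotation and the strand setting, the sources used here give nothing. Rows were read by their last 25 cells, since 10202 of 24028 hold an extra leading cell.

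Counts were filtered (filterByExpr by group), scaled by TMM and fitted over all 21 tumours without covariates. The test was edgeR's quasi-likelihood F test (version 4.0.16 under R 4.3.3), with Benjamini-Hochberg adjustment over 15792 genes; rose and fell mean an adjusted p under 0.05. SE is the log2 fold change over the square root of F. CPM used TMM-scaled totals, and RPKM the deposited length. Correlations used log2 CPM with a prior count of 2.

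Named are all 10 feedback genes, Nf1, Ccnd1, up to 4 called genes of lowest p per pathway list and comparison, and the 5 most alike genes. Fgfr1, Tgfa, Hbegf and Errfi1, Met and Fgfr2 in single tumours or stable against vehicle, other called RAS to ERK genes and the paralogs in the closing part were picked after their values were seen. The feedback genes, lists and tests were chosen with earlier results of these data known. Alternatives were DESeq2 size factors and upper quartile scaling in edgeR, the DESeq2 1.42.0 Wald test, no filter, a fit of 2 groups, a replicate block, summed title codes, and leaving out vehicle 2, 6 and 7 or each tumour in turn. A trial of the processing on simulated data first missed its preset pass mark, which was then lowered with the method unchanged.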

Additional observations from a re-analysis of the deposited data

Results flagged for a closer look

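In each group of 7 tumours and for each of the 10 genes, the gap between the most extreme tumour and its nearest neighbour was set against the range of the group (Dixon's test at the 95% level). Of the 30 gene and group combinations, 9 had a tumour beyond that limit. About 1 in 20, or 1.5, would be expected by chance if values were normally distributed. The test used CPM without a log, and the share of all genes beyond the limit was not computed. The 9 therefore cannot be weighed against chance or called particular to these genes. Stable 1 gave 7 of the 9 and relapse 2 gave 2. In stable 1 they were Dusp6 at 535 CPM (next highest stable tumour 106), Spry1 at 44.7 (23.1), Spry2 at 29.3 (16.8), Spry4 at 68.3 (8.83), Spred1 at 520 (313), Etv4 at 25.1 (13.6) and Etv5 at 95.6 CPM (26.7). In relapse 2 they were Spry4 at 36.5 CPM (10.3) and Etv5 at 77.2 CPM (41.5), the latter just past the limit with a gap of 0.571 of the range. The genes are correlated and come from the same libraries, so the 9 are not separate observations.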

How the results depend on the processing

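Of 240 fold changes of feedback genes under alternatives other than leaving out 1 tumour, 220 kept direction and side of the threshold, 15 reversed and 5 (all Spry1) lost their call. The cause was not tested. Reversed in relapse against vehicle without vehicle 2, 6 and 7 were Dusp4 (-0.16) and Spry4 (0.10). Reversed in stable against vehicle without them were Dusp4 (-0.29), Spry2 (0.057) and Spry4 (0.52), and Spry2 also with upper quartile factors (0.0076) and summed title codes (0.010). Relapse against stable for Spry1 reversed with DESeq2 size factors and the DESeq2 Wald test (-0.016 each), no filter (-0.026), 2 groups (-0.0092), summed title codes (-0.0011) and without vehicle 2, 6 and 7 (-0.0042).

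The count of feedback genes called fell to 0 in both comparisons with vehicle under summed title codes and without vehicle 2, 6 and 7, and to 0 in stable against vehicle with 2 groups. Over all genes, summed title codes gave 955 calls in relapse and 592 in stable against vehicle, leaving out vehicle 2, 6 and 7 gave 527 and 847, and the fit of 2 groups gave 964 in stable. The DESeq2 Wald test called 6 genes between relapse and stable. Upper quartile scaling changed the split of calls in relapse against vehicle from 856 higher and 916 lower to 953 and 673. Of the correlated pairs, 13 passed without stable 1 and relapse 2, an alternative chosen after seeing the data.

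The replicate block gave 987 calls over all genes in relapse and 1251 in stable against vehicle, and reversed Etv5 in stable against vehicle (-0.091) and Dusp6 in relapse against stable (0.12). It changed no call of a feedback gene. Deviations of same-numbered tumours correlated by more than 0.1 in 1 of 7 pairs in each comparison, and tumours correlated best with their own number in 1, 1 and 0 of 7, so the numbers were not treated as a pairing.

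Leaving out each tumour in turn, 575 of 630 fold changes kept direction and call, 43 reversed, 10 lost and 2 gained a call. Calls over all genes ranged from 1156 to 2671 in relapse against vehicle, 1470 to 3272 in stable against vehicle (lowest without vehicle 6, highest without stable 1 in both) and 0 to 4 between the treated groups. Feedback genes called ranged from 0 to 1, 0 to 2 and 0 to 0. Fold changes that crossed 0 in relapse against vehicle were Spry2 (-0.094 to 0.25) and Etv5 (-0.24 to 0.36). In stable against vehicle they were Dusp6 (-0.17 to 0.79), Spry2 (-0.26 to 0.15), Spry4 (-1.70 to 0.0070), Spred1 (-0.027 to 0.17) and Etv5 (-0.62 to 0.31). Between relapse and stable they were Dusp6 (-0.42 to 0.62), Spry1 (-0.12 to 0.24), Spry2 (-0.056 to 0.33), Spry4 (-1.03 to 0.95), Spred2 (-0.072 to 0.18) and Etv5 (-0.24 to 0.73). Depth limits mainly Dusp5, with 42 to 387 counts, and Spry4, with 69 to 1571.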

Other observations

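The 2 title codes found in both treated groups allow a relapse and a stable tumour of the same code to be set side by side, with no test. In the first pair, relapse 6 held more Dusp6 than stable 7 (176 against 62.8 CPM), more Etv4 (22.6 against 6.83) and more Etv5 (36.7 against 15.3). In the second, relapse 5 and stable 5 were close for Etv5 (20.7 and 22.1 CPM), while Dusp4 was at 90.3 CPM in relapse 5 and 30.3 in stable 5.

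Some paralogs outside the 10 genes were also high in single tumours, and others were not. The PEA3 factor gene Etv1 was at 90.3 CPM in stable 1 and 46.6 in vehicle 6, with a highest value of 18.9 CPM in the other 19 tumours (relapse 2). The phosphatase gene Dusp9 was at 6.69 CPM in stable 1 and 4.64 in relapse 2. Spry3 was at 8.78 CPM in stable 1 and 5.91 in vehicle 3, and Spred3 at 14.5 CPM in relapse 2 and 5.21 in stable 1.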
